A study of Mus musculus with 12 samples.

Results

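Inflammasomes are protein platforms that assemble inside a cell when a sensor protein detects a microbial product or damage. Most sensors recruit the adaptor ASC, which gathers and activates the protease caspase-1. Caspase-1 then cuts the precursors of the cytokines IL-1β and IL-18 and also gasdermin D, whose released fragment forms pores in the plasma membrane and leads to pyroptosis, a lytic and inflammatory form of cell death. In a parallel route, mouse caspase-4 (long known as caspase-11) binds LPS in the cytosol and cuts gasdermin D without a sensor of its own. In the lung, alveolar macrophages are a well-known site of this machinery, and hyperoxia and LPS are both used as injuries in which it is studied. The RNA values reported here do not measure assembly, cleavage or secretion.

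The 10 genes described here were taken by name from the 34745 genes of the expression table: the sensors Nlrp1a, Nlrp1b, Nlrp3 and Nlrc4, the adaptor Pycard (which encodes ASC), the proteases Casp1 and Casp4, the pore former Gsdmd, and the cytokines Il1b and Il18. Each of the 10 names matched 1 gene. The libraries were made from MLE-12, a mouse cell line of alveolar type II (AT II) epithelium immortalised with SV40 large T antigen, in 4 groups of 3. The LPS group received 100 ng/mL LPS in 21% O2, and the LPS + M2-Exo group received the same with 10 µg/mL M2-Exo, which are exosomes from the medium of MH-S alveolar macrophages turned towards the M2 state with IL-4. The Hyp group was kept in 85% O2 without LPS, and the Hyp + M2-Exo group was kept in 85% O2 with 10 µg/mL M2-Exo. The methods of the study place the addition of M2-Exo after the LPS or hyperoxia treatment. The labels give 24 h for all groups. No library came from untreated cells, so Hyp against LPS compares one injury with the other and gives no change from a resting level. Nothing in the labels says that the 3 libraries of a group came from separate cultures, so p-values measure the spread between these libraries, which may be technical.

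Total counts ranged from 16021833 to 18505941 in LPS + M2-Exo, from 18700207 to 19185116 in LPS, from 20231632 to 23414010 in Hyp + M2-Exo and from 22035335 to 24074616 in Hyp. The 10 genes together took 1747 to 2626 counts per library. The labelled cell type was checked against its markers. Of 9 AT II markers, Sftpa1 and Sftpd had at most 3 counts in every library, whereas Sftpc, Abca3 and Nkx2-1 were counted in every library, Sftpc with 240 to 433 counts. The table also held RNA of macrophage genes in every group. The summed level of 18 macrophage markers was 493 to 548 CPM (counts scaled to a common library size after TMM) in LPS, 383 to 444 CPM in LPS + M2-Exo, 129 to 134 CPM in Hyp and 98.2 to 147 CPM in Hyp + M2-Exo. Of the 18, 14 had more than 3 counts in every LPS library, with the most counts for Csf1r, Lyz2 and Adgre1, and 3 (Arg1, Itgax and Siglecf) had at most 3. The summed level of 5 epithelial markers was 658 to 701 CPM in LPS and 881 to 898 CPM in Hyp, a sum carried by Krt19 (501 ± 22.3 CPM in LPS and 744 ± 5.36 CPM in Hyp, SD, n = 3). Krt18 had at most 4 counts in every library and Epcam had 6 to 21. Of the 4 epithelial markers tested, Krt19 was called higher in Hyp and Cdh1, Epcam and Krt8 were called lower. The summed AT II markers were lower in Hyp, from 427 to 443 CPM in LPS to 250 to 264 CPM in Hyp, with 2 of 6 tested called higher and 4 lower. Of all genes tested, 38% were called higher and 37.8% lower. Epcam, with 8 to 15 counts in Hyp, and the AT II marker Napsa, with 9 to 26, were among those called lower. Only some of their Hyp libraries reached the minimum of the filter on low counts. Both were kept because LPS was high, and their calls lend no support to a direction. In bulk RNA, fewer cells of a type and less RNA per cell cannot be told apart, and this holds for every value below.

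The sequences that frame the main contrast are the starts of 4 of the genes. Casp1 and Casp4 lie next to each other on chromosome 9, on the same strand and 1562 bases apart, and their RNA moved in opposite directions between the injuries. Pycard and Il1b were among the genes lower in hyperoxia. The 250 bases upstream of the RefSeq start site (GRCm38.p6) are given 5′ to 3′ on the strand of the gene, at chr9:5298267-5298516 (+) for Casp1, chr9:5308599-5308848 (+) for Casp4, chr7:127993868-127994117 (-) for Pycard and chr2:129371140-129371389 (-) for Il1b. Capitals mark matches of 4 motifs searched on both strands, the NF-kB consensus, AP-1 (TGANTCA), PU.1 (GAGGAAG) and the TATA box (TATAAA).
Casp1: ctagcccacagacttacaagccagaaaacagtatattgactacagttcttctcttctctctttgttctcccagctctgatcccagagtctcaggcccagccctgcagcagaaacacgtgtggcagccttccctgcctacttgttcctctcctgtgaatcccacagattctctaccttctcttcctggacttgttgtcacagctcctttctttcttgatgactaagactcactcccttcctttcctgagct
Casp4: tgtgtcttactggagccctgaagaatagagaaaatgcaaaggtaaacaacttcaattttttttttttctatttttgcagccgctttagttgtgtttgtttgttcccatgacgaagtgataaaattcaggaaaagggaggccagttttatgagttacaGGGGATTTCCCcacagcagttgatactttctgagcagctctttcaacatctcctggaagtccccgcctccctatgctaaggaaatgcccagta
Pycard: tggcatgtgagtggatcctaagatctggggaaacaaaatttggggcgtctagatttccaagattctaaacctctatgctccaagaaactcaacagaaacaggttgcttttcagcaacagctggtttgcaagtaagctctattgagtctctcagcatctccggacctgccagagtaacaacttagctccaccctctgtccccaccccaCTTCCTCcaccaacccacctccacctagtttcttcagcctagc
Il1b: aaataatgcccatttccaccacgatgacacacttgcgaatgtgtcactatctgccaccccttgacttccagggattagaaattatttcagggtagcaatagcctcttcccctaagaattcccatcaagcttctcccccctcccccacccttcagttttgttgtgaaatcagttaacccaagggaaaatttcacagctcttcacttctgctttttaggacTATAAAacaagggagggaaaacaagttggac

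Casp4 held overlapping matches to the NF-kB consensus that begin 93 and 92 bases before its start site, Pycard held a PU.1 match on the other strand 43 bases before its start, Il1b held a TATA box 31 bases before its start, and Casp1 held none of the 4 motifs. RefSeq gave start sites for 9 of the 10 genes, 12 sites in all, and none was matched for Gsdmd. NF-kB matches were found for Casp4 and for 1 of the 2 start sites of Nlrp3, against 3.9% of 32851 promoter stretches of the same length. PU.1 matches were found for Nlrp1a, Nlrp1b, Nlrp3 and Pycard, against 10.6% of the stretches, and TATA matches for Il1b and Il18, against 12.4%. The Il18 match lay 175 bases before its start site. The bases that follow this site did not occur as a whole in a GENCODE transcript of the gene. The same held for the Nlrp3 site with the NF-kB match and the Nlrp1b site with the PU.1 match. AP-1 matches were found for 0 of the 9, against 6.75%. A match is a description of letters and was not tested as a binding site.

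Levels are compared between genes only per length. By the deposited FPKM (fragments per kilobase of gene, scaled to the library total), Gsdmd led in every group. It stood at 31.3 ± 1.32 FPKM (SD, n = 3) in LPS, Casp4 at 9.41 ± 0.475 FPKM, Il18 at 5.9 ± 0.612 FPKM, Casp1 at 4.61 ± 0.0509 FPKM and Nlrp3 at 2.32 ± 0.236 FPKM. Il1b, Nlrc4, Pycard, Nlrp1a and Nlrp1b followed below 1 FPKM, in that order, and in LPS no neighbours in the order overlapped. In LPS + M2-Exo the order was the same, with Nlrc4 and Pycard overlapping. In Hyp the first 5 places were the same, at 16.8 FPKM for Gsdmd, 12.9 for Casp4, 1.89 for Il18, 0.789 for Casp1 and 0.304 for Nlrp3. Below Casp1, the ranges of Nlrp3 and Il1b overlapped, as did those of Il1b and Nlrc4, and Nlrp1a, Nlrp1b and Pycard, at 0.0676 to 0.072 FPKM, could not be put in order. In Hyp + M2-Exo the first 5 places were those of LPS, and the ranges of Il1b and the genes below it overlapped from one to the next. In Hyp, Gsdmd and Casp4 had 623 to 1470 counts per library, whereas Pycard, Nlrp1a, Nlrp1b and Nlrc4 had 5 to 16.

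The order of the first 2 genes in Hyp and in Hyp + M2-Exo depended on the gene length. For 7 of the 10 genes the length behind the deposited FPKM equalled the summed length of all distinct exons in GENCODE M21, with shared stretches counted again for each exon version. For Casp4 this length was 4846 bases against 3710 for the union of its exons and 1901 for its longest transcript. For Pycard it was 4236 bases, more than the 4160 bases that the gene spans. For Il18 it was 714 bases, fewer than the 885 bases of its longest transcript. With the longest transcript as the length, Casp4 in Hyp reached 31.9 CPM per kb and Gsdmd 16.2 CPM per kb, and with the union of exons 16.3 and 12.2, so that Casp4 came first on both scales. In Hyp + M2-Exo, Casp4 also came first on both, at 30.3 against 14.9 CPM per kb with the longest transcript. In LPS, Gsdmd stayed above Casp4 on every scale, at 32.1 against 24.8 CPM per kb with the longest transcript. Lower places in LPS changed too. With the union of exons Casp1, at 4.76 CPM per kb, lay above Il18, at 4.22, and Pycard came before Nlrc4 with overlapping ranges. Fold changes between groups do not depend on the length.

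**Figure D1:**
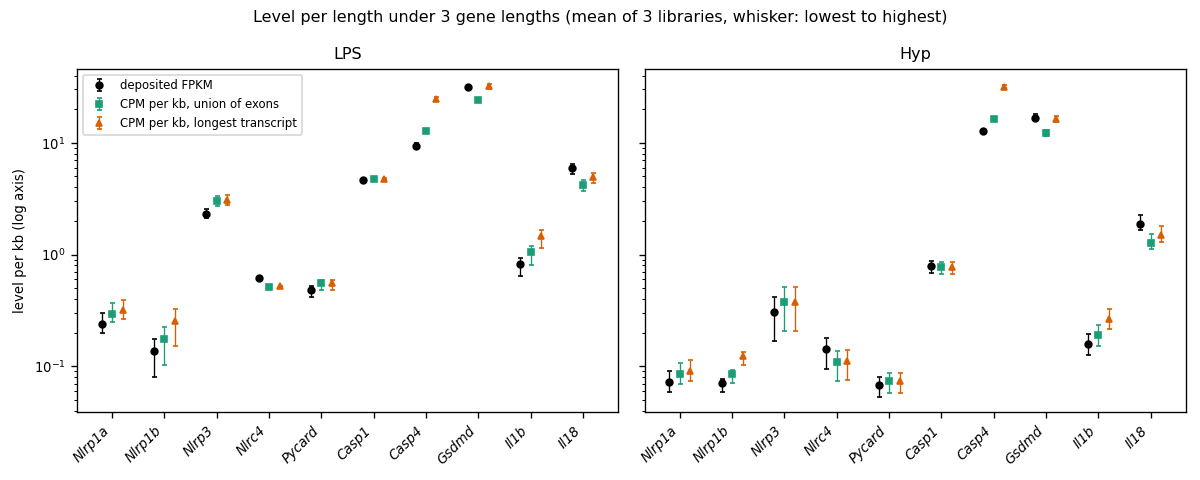
Level per kilobase of the 10 genes in LPS (left) and Hyp (right) on a log axis, as deposited FPKM (black), as CPM per kb of the union of exons (green) and as CPM per kb of the longest transcript (orange). Points are means of 3 libraries and whiskers run from the lowest to the highest library. In Hyp, Casp4 lies below Gsdmd by FPKM (12.9 against 16.8) and above it by the longest transcript (31.9 against 16.2).

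Hyp against LPS asks how the RNA of the pathway differs between the hyperoxic and the LPS injury. Oxygen, LPS and any difference in culture or handling between the 2 models cannot be told apart in it. Sensor, adaptor, caspase-1, gasdermin D and cytokine RNA was lower in Hyp, by 1.98-fold for Gsdmd and by 8.04-fold for Nlrp3, and Casp4 alone of the 10 was higher, by 1.28-fold. In this comparison 75.8% of all 13805 genes tested were called (edgeR quasi-likelihood test, Benjamini-Hochberg adjusted p under 0.05), 38% as higher and 37.8% as lower, so a call by itself says little about these genes. All 10 genes passed the filter on low counts and 10 were called. However, Nlrp1a, Nlrp1b, Nlrc4, Pycard and Il1b reached the minimum in all 3 LPS libraries and in at most 2 Hyp libraries. They were kept because LPS was high, and their calls lend no support to a common direction. Nlrp3, Casp1, Casp4, Gsdmd and Il18 reached it in all 6 libraries, and of these 5 genes 4 were lower and 1 was higher in Hyp. For Nlrp3, Casp1, Gsdmd and Il18 all Hyp libraries lay below all LPS libraries in CPM, as for 38.9% of all genes tested. For Casp4 they lay above them, as for 39.9%. The median log2 fold change of the 10 was -2.00, against 0.01 for all genes tested. It includes the 5 genes kept because LPS was high, so it lends no support to a common direction.

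Among the sensors, Nlrp3 had the largest fold change. Nlrp3, the sensor of potassium efflux and of many forms of damage, had 203, 253 and 225 counts in the LPS libraries and 50, 19 and 41 in Hyp. The groups lay far apart, with Hyp replicate 2 the lowest of all. The log2 fold change was -3.01 (SE 0.24, adjusted p = 9.03e-06 by the edgeR quasi-likelihood test). Nlrc4, which detects flagellin and type III secretion proteins through NAIP partners, had 44, 46 and 45 counts in LPS and 16, 8 and 14 in Hyp, a log2 fold change of -2.20 (SE 0.23). Nlrp1a had 28, 21 and 19 counts in LPS and 7, 10 and 8 in Hyp, a log2 fold change of -1.80 (SE 0.29). Nlrp1b, the sensor of anthrax lethal factor in mice, had 23, 26 and 12 counts in LPS and 14, 13 and 11 in Hyp. Its raw counts overlapped, and its CPM ranges were apart by little, from 0.652 CPM in the lowest LPS library to 0.582 CPM in the highest Hyp library. Its log2 fold change of -1.05 (SE 0.34) was called by the edgeR quasi-likelihood test (adjusted p = 0.0212) and not by DESeq2 (adjusted p = 0.0816). The call was also lost without LPS replicate 1 (adjusted p = 0.0676 by edgeR), without LPS replicate 2 (0.0836) and without Hyp replicate 3 (0.071). Nlrp1a and Nlrp1b are neighbouring paralogs on chromosome 11, 8397 bases apart. Of the distinct 50-base stretches in their GENCODE transcripts, 2.07% of those of Nlrp1a and 1.45% of those of Nlrp1b also occur in another gene, so most of each transcript can be told from the other.

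The adaptor gene Pycard had 40, 42 and 34 counts in LPS and 8, 5 and 7 in Hyp. All 3 Hyp libraries were below all 3 LPS libraries, with a log2 fold change of -2.89 (SE 0.25, adjusted p = 1.41e-05 by the edgeR quasi-likelihood test). Pycard overlaps the antisense gene RP24-144C5.1, 11.7% of its 50-base stretches occur in another gene, and the library kit named in the labels does not mark strand, so reads of the 2 genes cannot be told apart there.

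The 2 caspase genes went in opposite directions. Casp1 had 130, 130 and 133 counts in LPS and 24, 29 and 29 in Hyp, narrow ranges that lay far apart. The log2 fold change was -2.63 (SE 0.13, adjusted p = 8.04e-07 by the edgeR quasi-likelihood test). Casp4 had 896, 871 and 831 counts in LPS and 1470, 1411 and 1449 in Hyp. In CPM this was 47.1 ± 2.01 (SD, n = 3) in LPS and 60.6 ± 1.99 in Hyp, with all Hyp libraries above all LPS libraries. The log2 fold change was 0.36 (SE 0.05, adjusted p = 0.000324 by the edgeR quasi-likelihood test), and 30.8% of all genes tested were higher by at least as much. No 50-base stretch of Casp1 and 0.24% of those of Casp4 occur in another gene.

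Gsdmd had 997, 1107 and 1067 counts in LPS and 694, 623 and 767 in Hyp, that is 57.5 ± 2.53 CPM (SD, n = 3) against 29.1 ± 1.72 CPM. The groups did not overlap, and the log2 fold change was -0.99 (SE 0.06, adjusted p = 2.67e-06 by the edgeR quasi-likelihood test). Of the cytokine genes, Il1b had 28, 42 and 40 counts in LPS and 7, 8 and 11 in Hyp, with a log2 fold change of -2.44 (SE 0.28). Il18 had 70, 88 and 82 counts in LPS and 38, 26 and 30 in Hyp, with a log2 fold change of -1.73 (SE 0.18). Both were called, at adjusted p = 7.64e-05 and 4.45e-05 by the edgeR quasi-likelihood test. The span of Il1b overlaps that of the antisense gene Il1bos, and 0 of its 50-base stretches occur in the transcripts of another gene.

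**Figure D2:**
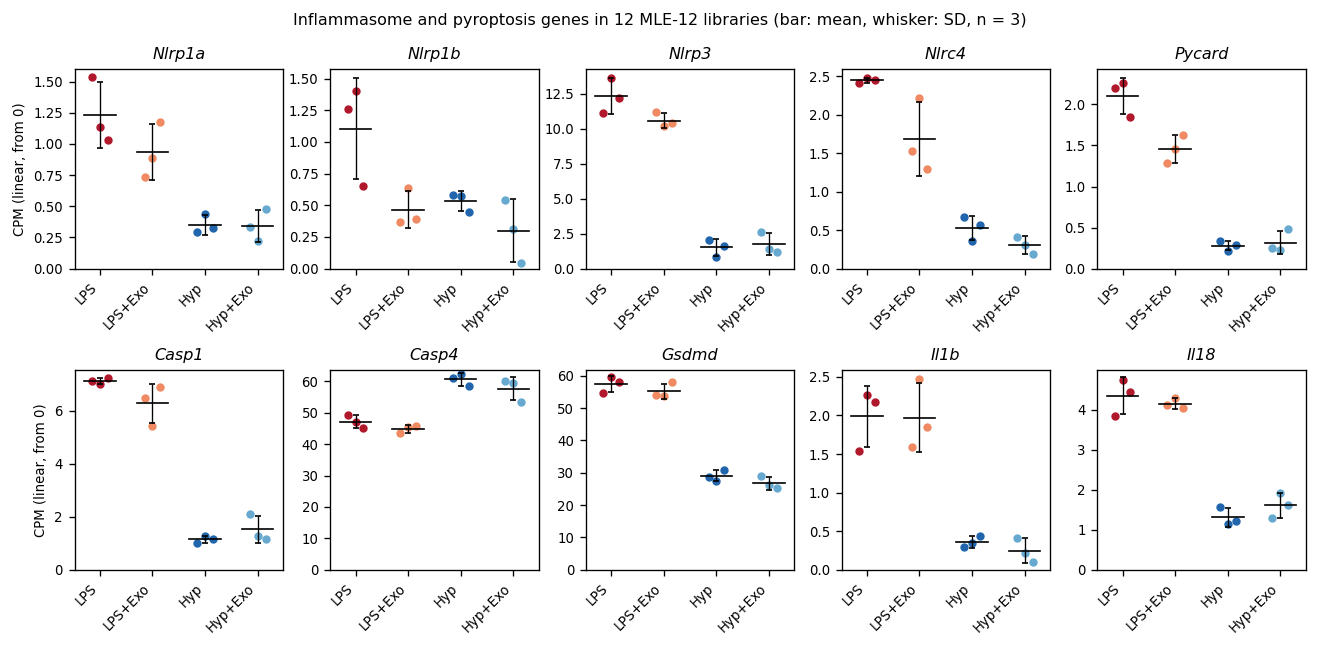
CPM of each of the 10 genes in the 12 libraries, on linear axes from 0; points are libraries, bars are means and whiskers are the SD of 3 libraries. In 9 panels the LPS libraries lie above the Hyp libraries, as for 38.9% of all genes tested. Casp4 is the panel where Hyp, at 60.6 CPM, lies above LPS, at 47.1 CPM, as for 39.9%. The 9 include 5 genes kept because LPS was high, which lend no support to a direction.

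The macrophage markers moved with these genes, and their part in the result was not tested. Their summed level was 4.01-fold lower in Hyp than in LPS. Of 15 markers tested, 11 were called lower and 3 called higher, where 37.8% and 38% of all genes tested were. The median log2 fold change of the 15 was -1.99. Among the lower were Csf1r (-2.47), the pan-leukocyte gene Ptprc (-2.51) and the myeloid transcription factor gene Spi1, which encodes PU.1 (-2.39). C1qb, C1qc and Itgax were higher, and Marco, the scavenger receptor gene of alveolar macrophages, had 57 to 80 counts in LPS and at most 1 in Hyp. Marco passed the filter on low counts through LPS alone, and C1qc and Itgax through Hyp alone. Set against that sum, the genes were of 3 kinds. Per 1000 CPM of the summed macrophage markers, Nlrp3 went from 20.7 to 24.9 CPM in LPS to 6.45 to 16.1 CPM in Hyp. Pycard went from 3.75 to 4.14 to 1.7 to 2.57, and Casp1 from 12.8 to 14.7 to 7.71 to 9.84. These 3 were lower in Hyp also relative to this sum. Nlrp1a, at 2.07 to 2.86 in LPS and 2.25 to 3.39 in Hyp, Nlrc4, at 4.49 to 4.96 and 2.71 to 5.14, Il1b, at 2.86 to 4.41 and 2.25 to 3.32, and Il18, at 7.14 to 9.04 and 8.82 to 12.2, overlapped. Casp4 was higher in Hyp relative to this sum, at 85.8 to 91.6 in LPS and 437 to 479 in Hyp. So were Gsdmd, at 102 to 118 and 211 to 231, and Nlrp1b, at 1.32 to 2.56 and 3.32 to 4.5. These ratios are a description with no test, and they depend on the markers summed. Among the lower markers, Cd14 had a log2 fold change of -1.05 and Fcer1g of -2.71, beside -2.63 for Casp1. Nlrp1a, Nlrp1b, Nlrc4, Pycard and Il1b were kept because LPS was high, and their ratios lend no support to a direction.

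**Figure D3:**
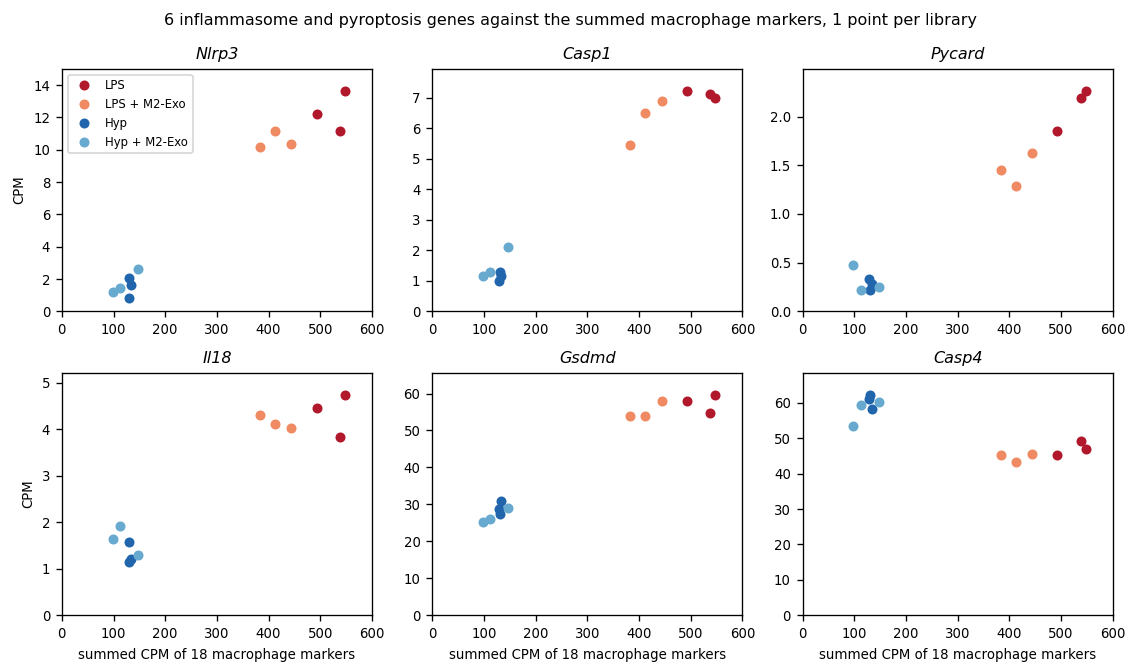
CPM of 6 of the 10 genes (y axes, linear from 0) against the summed CPM of 18 macrophage markers (x axis) in the 12 libraries, coloured by group. The libraries form 2 clusters, the LPS groups at 383 to 548 CPM of markers and the hyperoxia groups at 98.2 to 147 CPM; Casp4 is the gene of the 6 that is higher in the second cluster.

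Hyp + M2-Exo against LPS + M2-Exo asks the same with M2-Exo present. It shares no library with Hyp against LPS. In it, 73.7% of 13660 genes tested were called, 37.1% as higher and 36.5% as lower. Nlrp1b, with 6, 10 and 7 counts in LPS + M2-Exo and 13, 7 and 1 in Hyp + M2-Exo, had too few counts for the comparison. The other 9 genes were called in the same directions as without M2-Exo. Of the 5 genes that reached the minimum in all 6 libraries, Nlrp3 was lower by a log2 fold change of -2.59 (SE 0.24), Casp1 by -2.04 (SE 0.23), Il18 by -1.38 (SE 0.19) and Gsdmd by -1.06 (SE 0.07), and Casp4 was higher by 0.35 (SE 0.06, adjusted p = 0.00122 by the edgeR quasi-likelihood test). The remaining 4, Nlrp1a, Nlrc4, Pycard and Il1b, were kept through the LPS + M2-Exo libraries alone. The macrophage marker sum was 3.46-fold lower in Hyp + M2-Exo than in LPS + M2-Exo.

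**Figure D4:**
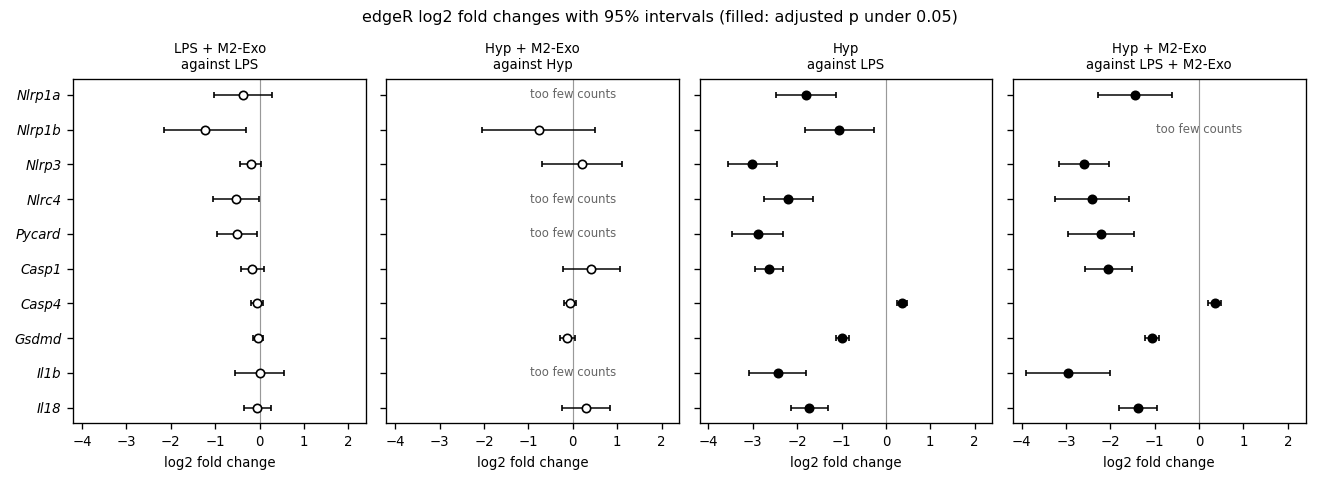
log2 fold changes of the 10 genes in the 4 pairwise comparisons, with 95% intervals; filled points are called (adjusted p under 0.05) and a gene with too few counts is named as such. The 2 comparisons of M2-Exo with its absence hold no filled point. The 2 comparisons of hyperoxia with LPS hold filled points alone, with Casp4 to the right of 0 at 0.36 and 0.35. Of all genes tested in these 2, 75.8% and 73.7% were called. Of the filled points, 5 in Hyp against LPS and 4 with M2-Exo in both groups are genes kept because the LPS side was high. Those points lend no support to a direction.

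LPS + M2-Exo against LPS asks whether M2-Exo altered the pathway in the LPS injury. None of the 10 genes was called, where 0.187% of 13353 genes tested were called. The genes of the pyroptotic end were measured closely and differed little. Casp4 had 708, 715 and 813 counts with M2-Exo, and its log2 fold change was -0.06 with a 95% interval from -0.18 to 0.07. Gsdmd had 880, 850 and 1032 counts, with a log2 fold change of -0.04 and an interval from -0.16 to 0.08. Il18, with 67, 68 and 72 counts, had an interval from -0.36 to 0.26, and Il1b, with 26, 39 and 33 counts, an interval from -0.55 to 0.55. Casp1 had 106, 86 and 123 counts, below all LPS libraries in CPM, and its log2 fold change of -0.16 had an interval from -0.43 to 0.10. Nlrp3 had 182, 161 and 185 counts, and its log2 fold change of -0.20 had an interval from -0.44 to 0.03.

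In the LPS pair Nlrp1b, with 6, 10 and 7 counts against 23, 26 and 12, had a log2 fold change of -1.23 (SE 0.40, unadjusted p = 0.0161 and adjusted p = 0.334 by the edgeR quasi-likelihood test). It reached the minimum of the filter in 3 LPS libraries and in 1 LPS + M2-Exo library, so it was tested because LPS was high, and its difference lends no support to a direction. Nlrc4, with 25, 35 and 23 counts, had -0.53 (SE 0.23, adjusted p = 0.444 by edgeR), and Pycard, with 21, 23 and 29 counts, had -0.51 (SE 0.19, adjusted p = 0.395 by edgeR). Of the other 9 genes, which reached the minimum in all 6 libraries, Nlrc4, Pycard and Casp1 had all 3 libraries with M2-Exo below the 3 without it, where 11.1% of all genes tested did. Before adjustment Nlrc4 and Pycard passed 0.05, where 11.1% of all genes did, and DESeq2 called 0 of the 10. Nlrp1a had 12, 14 and 21 counts and overlapped with LPS. The summed macrophage markers were lower in LPS + M2-Exo as well, by 1.27-fold, without overlap of the groups and with 0 of 13 markers called, and their part in these differences was not tested.

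Hyp + M2-Exo against Hyp asks the same in the hyperoxic injury. Here 0.101% of 13815 genes tested were called. Nlrp1a, Nlrc4, Pycard and Il1b had too few counts for the comparison. With M2-Exo, Nlrp1a had 8, 5 and 10 counts, Nlrc4 10, 7 and 4, Pycard 6, 5 and 10, and Il1b 10, 5 and 2. Of the 6 genes tested 0 were called by edgeR and 0 by DESeq2. Before adjustment 0 of them passed 0.05, where 8.48% of all genes did. In all 6 the groups overlapped, whereas of all genes tested 7.35% lay fully above and 8.22% fully below. Casp4 had 1444, 1329 and 1112 counts, a log2 fold change of -0.07 with a 95% interval from -0.21 to 0.07, and Gsdmd had 694, 584 and 525 counts, -0.12 with an interval from -0.29 to 0.05. Il18 had 31, 43 and 34 counts, with an interval from -0.24 to 0.83. Nlrp1b, with 13, 7 and 1 counts, had an interval from -2.04 to 0.51, and it was tested because 3 Hyp libraries reached the minimum, which 1 Hyp + M2-Exo library did.

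Casp1 and Nlrp3 in this pair depended on single libraries. Casp1 had 51, 29 and 24 counts with M2-Exo, a log2 fold change of 0.42 with an interval from -0.22 to 1.06, and 0.10 without Hyp + M2-Exo replicate 1. Nlrp3 had 63, 32 and 25 counts, a log2 fold change of 0.21 with an interval from -0.70 to 1.11, and -0.21 without that replicate. Its sign also changed without Hyp replicate 2. Hyp + M2-Exo replicate 1 had the highest summed macrophage markers of its group, 147 CPM against 112 and 98.2 CPM, and the part of these markers in its values was not tested.

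Whether the M2-Exo effect differed between the injuries was tested as an interaction over all 12 libraries. By edgeR 0 of the 10 genes were called, where 0.0352% of 14187 genes tested were, and by DESeq2 0 were called. Before adjustment 0 of them passed 0.05, where 9.78% of all genes did. The smallest adjusted p was that of Casp1, with a difference of 0.59 on the log2 scale (SE 0.28, 95% interval from -0.03 to 1.21, adjusted p = 0.533 by the edgeR quasi-likelihood test). The intervals were narrow for Casp4, from -0.19 to 0.17, and for Gsdmd, from -0.27 to 0.12, and wide for Nlrp1b, from -1.15 to 2.09. A test of any difference among the 4 groups called 10 of the 10 genes, where 77.8% of all genes tested were called, at adjusted p-values between 4.9e-09 for Gsdmd and 0.023 for Nlrp1b by edgeR.

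The wider pathway was described by 4 lists. Among 12 other sensors, 5 (Mefv, Naip1, Nlrp12, Nlrp6 and Nlrp9b) had too few counts and 7 were tested in Hyp against LPS. Of these, 0 were called higher and 5 called lower, where 38% and 37.8% of all genes tested were. Nod1, a sensor of bacterial peptidoglycan, had 38 to 44 counts in LPS and 7 to 10 in Hyp (log2 fold change -2.71), Nod2 fell by 0.72 on the log2 scale, and Naip6, which encodes a partner of NLRC4, fell by 1.51. Naip5, of the same family, went from 32 to 42 counts to 15 to 29 and was called as well (adjusted p = 0.00315 by edgeR). Nlrp10 fell by 0.86. Nod1 reached the minimum of the filter in no Hyp library, and Nlrp10 in only some of them. Both were kept because LPS was high, and their calls lend no support to a direction. Aim2, the sensor of cytosolic DNA and the highest of the list at a mean of 9 FPKM over the 12 libraries, had a log2 fold change of -0.25 (adjusted p = 0.0523 by edgeR), and -0.38 with M2-Exo in both groups (adjusted p = 0.00326). Naip2, at 1.18 FPKM, had -0.34 (adjusted p = 0.0508 by edgeR).

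Among 14 genes that regulate the sensors, 5 were called higher and 7 called lower in Hyp, where 38% and 37.8% of all genes tested were. The guanylate-binding protein genes, whose products open the way for LPS to caspase-4, were lower. Gbp5 had 127 to 162 counts in LPS and 23 to 30 in Hyp (log2 fold change -2.86, SE 0.17), Gbp2 had a log2 fold change of -1.74, Gbp7 of -1.56 and Gbp3 of -2.12. P2rx4, an ATP receptor gene, fell by 0.71, and P2rx7 by 0.98. Higher in Hyp was Panx1, which encodes an ATP-releasing channel (log2 fold change 0.94), and Dpp8 and Dpp9, which encode inhibitors of NLRP1, were higher by 0.19 and 0.38. Txnip, by 1.16, and Nek7, by 0.19, were called higher as well. Dpp8 and Dpp9 had the highest means of the list, 37.0 and 27.1 FPKM over the 12 libraries, followed by Mapk14 at 16.0 FPKM. Nek7, whose product binds NLRP3 for its assembly, was uneven within LPS + M2-Exo, with a lowest count of 684, a median of 2008 and a highest of 2310, against 683 to 734 in LPS. Its log2 fold change of 1.37 there was not called (adjusted p = 0.235 by edgeR).

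Among 15 other execution genes, 8 were tested in Hyp against LPS. Of these, 1 was called higher and 3 were called lower, all by little, where 38% and 37.8% of all genes tested were called. The membrane rupture gene Ninj1 fell by 0.39 on the log2 scale and Chmp4b, of the membrane repair machinery, by 0.21, and its partner Vps4a was higher by 0.13. Chmp4b and Vps4a stood at means of 57 and 26.2 FPKM over the 12 libraries. The gasdermin genes other than Gsdmd were low, with Gsdme at 83 to 104 counts in LPS and 84 to 104 in Hyp (log2 fold change -0.37, adjusted p = 0.0543 by edgeR) and Gsdma at 3 to 5 and 7 to 10.

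Of 20 IL-1 family, receptor and signalling genes 18 were matched and 14 tested in Hyp against LPS. Of these, 5 were called higher and 6 called lower, where 38% and 37.8% of all genes tested were. Il1a, an alarmin, had 28 to 41 counts in LPS and 4 to 5 in Hyp (log2 fold change -3.29, SE 0.30), and 0 to 2 in Hyp + M2-Exo against 27 to 30 in LPS + M2-Exo. It reached the minimum of the filter in no Hyp library, so its call lends no support to a direction. Il1rn, which encodes the IL-1 receptor antagonist, had a log2 fold change of -1.31, and Irak3, an inhibitor of the signal, of -1.02. Irak1 fell by 0.28. Il18bp, which encodes a secreted protein that binds and blocks IL-18, was higher in Hyp by a log2 fold change of 0.35 (adjusted p = 0.0307 by edgeR). Signalling genes on the higher side were Irak2 (0.77), Traf6 (0.59) and Myd88 (0.21). Myd88, Traf6 and Irak1 had the highest means of the list, at 12.4, 9.97 and 4.31 FPKM. In neither M2-Exo comparison was a gene of these 4 lists called. In LPS + M2-Exo against LPS, 7 other sensors, 14 regulators, 8 execution genes and 15 IL-1 family genes were tested, and in Hyp + M2-Exo against Hyp 5, 14, 9 and 13.

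**Figure D5:**
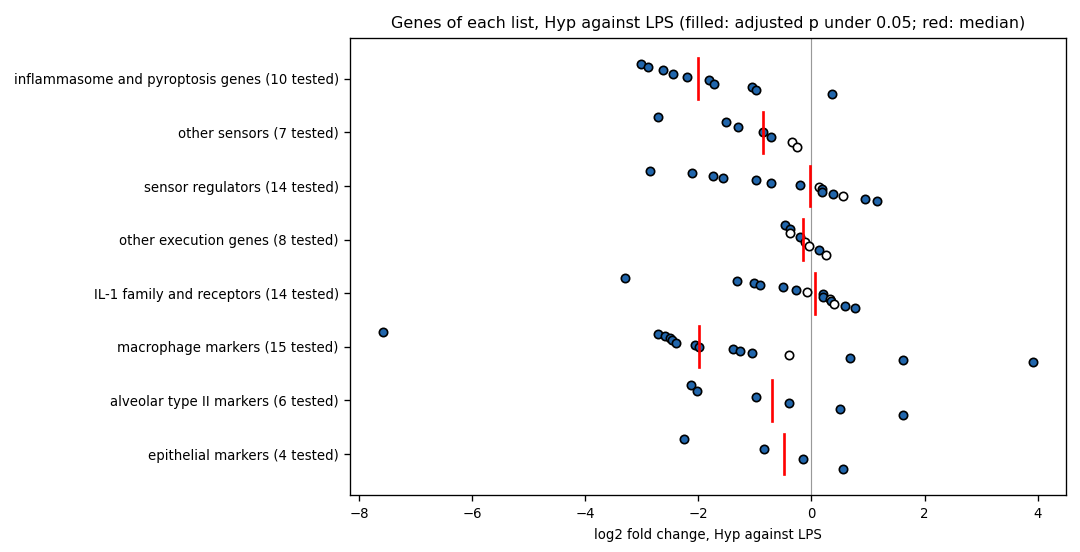
log2 fold changes in Hyp against LPS of the genes tested in each list, 1 point per gene; filled points are called (adjusted p under 0.05) and red lines are medians. The 10 genes and the macrophage markers have medians of -2.00 and -1.99, and the regulators, execution genes and IL-1 family genes have medians of -0.03, -0.16 and 0.06. The median of the 10 includes 5 genes kept because LPS was high and lends no support to a direction.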

How the data were processed

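RNA of 12 MLE-12 libraries was sequenced after poly(A) selection. According to the methods and the processing notes, reads were filtered with Seqtk and mapped with HISAT2 2.0.4 to GRCm38, and StringTie 1.3.0 and edgeR are named. The counting program and the annotation are not given in the sources used here. The authors deposited raw read counts per gene, not normalized, and FPKM, which follow from the counts, the library total and a gene length.

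The tests used edgeR 4.0.16 under R 4.3.3 (filterByExpr, TMM, glmQLFit and glmQLFTest), each pair of groups on its 6 libraries, and the interaction and the test of any difference on all 12. Called means a Benjamini-Hochberg adjusted p under 0.05 over all genes tested, and too few counts means removal by filterByExpr. The filter needs a CPM worth 10 counts in the median library, in 3 libraries. CPM use TMM factors of all 12 libraries. Intervals are 95% and cover the spread between libraries. Genes were matched to GENCODE M21 by identifier (98.85%). From each pathway list, genes called in a pairwise comparison (5 at most per list and comparison) and the 3 with the highest mean FPKM were named. A gene that this rule names is not reported here. Gbp3, Nek7, Txnip, P2rx7, Gsdme, Gsdma, Dpp8, Dpp9, Il1rn, Il18bp and Myd88 in Hyp against LPS, the cell type markers named singly and the genes listed as too few in counts were named after their values were seen. The 10 genes and the lists were chosen with earlier results of these data known. The fits were tested on simulated data. The alternatives were RLE, library size alone, no filter, at least 10 counts in every library, DESeq2 1.42.0, all 12 libraries in a fit, a replicate block and each library left out. Gene lengths by exon union and longest transcript were added after the data were seen.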

Additional observations from a re-analysis of the deposited data

How the results depend on the processing

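Of the 10 genes, 0 were called in either M2-Exo comparison or in the interaction under every alternative run. In Hyp against LPS and Hyp + M2-Exo against LPS + M2-Exo every direction held, and with at least 10 counts asked in every library 6 and 5 of the genes were called, because fewer were tested, and 5 in the test of any difference. With DESeq2, 9 were called in Hyp against LPS. With each library left out in turn, 9 to 10 were called in Hyp against LPS, 9 to 9 in Hyp + M2-Exo against LPS + M2-Exo and 9 to 10 in the test of any difference. Nlrp1b in Hyp against LPS was the only gene to lose its call, as given above, with log2 fold changes of -1.06 by DESeq2 and -1.32 to -0.85 with a library left out. In LPS + M2-Exo against LPS, Il1b changed sign with DESeq2 (0.0025), with all 12 libraries in a fit (0.0011) and with a library left out (-0.20 to 0.12), as did Il18 (0.016 without LPS replicate 2, -0.13 to 0.016 over the libraries), and in Hyp + M2-Exo against Hyp so did Nlrp3 (-0.21 to 0.49, with -0.08 without Hyp replicate 2). The cause was not tested.

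Counts over all genes depended more on the setting. In LPS + M2-Exo against LPS 25 genes were called, 133 by DESeq2, 12 with all 12 libraries in a fit and 21 to 39 with a library left out. In Hyp + M2-Exo against Hyp the counts were 14, 41, 2 and 12 to 21. In the interaction 5 were called, 13 with no filter, 76 by DESeq2 and 4 to 34 with a library left out, the 34 without Hyp + M2-Exo replicate 1. Same-numbered libraries did not deviate together (correlations of at most 0.053), so the numbers give no pairing, and the replicate block gave 6 genes in the LPS pair, 8 in the hyperoxia pair and 3 in the interaction. Of the 10 places in the order of levels in LPS, 5 were kept by CPM and 6 by the union of exons. In hyperoxia Nlrp1a, Nlrp1b, Nlrc4, Pycard and Il1b had at most 16 counts in a library, which limits what could be detected.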

Other observations

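The pattern of each gene over the 12 libraries was compared with that of the other genes with a mean of at least 50 counts, by Pearson's correlation of log2 CPM, as a description. Casp1 was most like Lrrc25 (r = 0.995) and almost as much like Sh2d4a (r = 0.993), and Casp4 was most like Rad50. The nearest gene was Ifi44 for Nlrp1a, Naip2 for Nlrp1b, Cdc26 for Nlrp3, Stat3 for Nlrc4 and Irf2 for Pycard. For Gsdmd it was Ccni, for Il1b Cnpy2 and for Il18 Kifap3. Because the libraries form 2 clusters by injury, such likeness mostly repeats the contrast of hyperoxia with LPS.

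Genes of both sex chromosomes were counted. Xist, which is transcribed from the inactive X chromosome, stood at 1662 to 1929 CPM in every library, and the 3 Y-linked genes Ddx3y, Eif2s3y and Kdm5d, chosen after the data were seen, summed to 14.0 to 16.5 CPM in LPS, 13.2 to 15.8 CPM in LPS + M2-Exo, 2.66 to 3.18 CPM in Hyp and 2.16 to 4.12 CPM in Hyp + M2-Exo. The Y-linked sum was thus lower in hyperoxia, as were the macrophage markers. Within groups the 2 sums did not always go together. Hyp + M2-Exo replicate 1 and LPS + M2-Exo replicate 3 were the highest of their groups in both sums. By contrast, LPS replicate 3 had the lowest marker sum of its group, 493 CPM, and the highest Y-linked sum, 16.5 CPM. Hyp replicate 3 had the highest marker sum of its group, 134 CPM, and the lowest Y-linked sum, 2.66 CPM. The source of this RNA was not tested.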
